A study of Mus musculus with 6 samples.

Results

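Semaphorins, plexins and neuropilins are the guidance system studied here in the embryonic mouse brain. They were taken by gene symbol as 20 semaphorins, 9 plexins and 2 neuropilins, which makes 31 genes of the 53801 in the count table. All 31 were found in the table and all 31 passed the filter on low counts, which asked for 10 counts or more in all embryos together. RNA-seq measured polyadenylated RNA from the whole brain of C57BL/6 embryos at E16.5 (embryonic day). Bahd1-KO embryos (n = 3) were Bahd1-/- and carried the Bahd1-null mutation on both copies, and Bahd1-WT embryos (n = 3) were Bahd1+/+. No other allele or agent is given for either genotype, and litter is not given. The study's methods state that its mice were male, and whether this covers the embryos is not stated. BAHD1 takes part in forming repressive chromatin, and the question was whether brain transcripts differ before birth when it is missing.

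Semaphorins are secreted or membrane-bound proteins that tell growing axons, migrating neurons and blood vessels where to go, most often by repulsion. Plexins are their receptors and act through a GTPase-activating domain inside the cell that loosens adhesion and the actin cytoskeleton. Most class 3 semaphorins, the secreted ones, cannot bind a plexin strongly by themselves and first bind a neuropilin, which holds ligand and plexin together. In the late embryonic brain these proteins guide the axons of the cortex, thalamus, hippocampus and corpus callosum.

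No semaphorin, plexin or neuropilin passed the test for a difference between genotypes. In the quasi-likelihood test of edgeR, 0 of 31 had an adjusted p under 0.05, against 0.00404% of the 24739 genes tested, which is the single gene Bahd1. The members' adjusted p-values lay between 0.696 and 0.975. Without adjustment, 0 of 31 had a p under 0.05, against 4.67% of all genes tested, and the smallest was 0.0651 for Sema3e. In 0 of 31 did the levels of the 3 Bahd1-KO embryos all lie on one side of those of the 3 Bahd1-WT embryos, against 6.71% of all genes tested. DESeq2 gave 0 adjusted calls among the members, with 8 among all genes, and 1 unadjusted p under 0.05 (3.23% of members, against 5.12% of all genes).

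The genotype labels held for the targeted gene. In the order of replicate numbers, Bahd1 counts were 2, 10 and 6 for Bahd1-KO and 1971, 3102 and 3470 for Bahd1-WT embryos (edgeR adjusted p = 0.0462). Libraries held between 61.7 and 91.8 times 1e6 counts. Bahd1-KO replicate 3 stood apart from the other 5 embryos. Protein-coding genes, mitochondrial ones included, took 53.5% of its counts, against 97.8 to 98.4% elsewhere, and its TMM factor (trimmed mean of M-values, the scaling used for all levels) was 0.684 against 1.04 to 1.11. The summed level of 6 neuron markers was 1899 CPM (counts per 1e6 counts) in this embryo and 7009 to 8831 in the others. Of these markers 4 were below and 1 above every other embryo. The summed level of 5 lung epithelium markers, with Sftpc and Sftpd at 0 in some embryos, was 1083 CPM there against 0.198 to 11.1, and 5 of 5 were higher than in every other embryo. The sum of 5 connective tissue markers was 2054 against 282 to 398, with 5 of 5 above every other embryo. That of 5 endothelium markers was 599 against 147 to 190, with 4 of 5 above. That of 5 skeletal muscle markers was 66.9 against 1.86 to 9.81, with 5 of 5 above. That of 5 oligodendrocyte lineage markers was 631 against 118 to 180, but 2 of 5 were above and 2 of 5 below every other embryo. Choroid plexus markers summed to 102 against 299 to 783, with 4 of 5 below every other embryo and 1 above. Microglia markers summed to 69.0 against 39.2 to 58.4 and blood markers to 323 against 116 to 560. The sum of 7 progenitor markers, 1154 against 1007 to 1355, lay within the range of the others. Singly, however, 5 of these 7 were below and 2 above every other embryo. Results below are therefore also given without Bahd1-KO replicate 3. The paper also regarded this embryo as a possible outlier and repeated its embryo comparison without it. The part of these marker differences in the members' values was not tested, nor was whether the library holds RNA from tissue other than brain. In RNA from a whole brain fewer cells of a type and less RNA per cell cannot be told apart.

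The members differed much in base composition, which moved with the embryo differences described below. The GC content of the longest annotated transcript ran from 39.2% in Sema3d to 63.5% in Sema6b. To show the range, a run of coding sequence from the exon at the middle of the coding region is printed for the highest 2 and the lowest 2 members by this measure, 5′ to 3′ on the coding strand, with G and C in capitals (GRCm38, GENCODE M21).
Sema6b, exon 13 of 17, minus strand, chr17:56126513-56126632: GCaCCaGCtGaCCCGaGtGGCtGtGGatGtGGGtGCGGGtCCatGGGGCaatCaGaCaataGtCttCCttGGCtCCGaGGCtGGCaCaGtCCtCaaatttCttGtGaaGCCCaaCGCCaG
Sema6c, exon 16 of 21, plus strand, chr3:95170751-95170870: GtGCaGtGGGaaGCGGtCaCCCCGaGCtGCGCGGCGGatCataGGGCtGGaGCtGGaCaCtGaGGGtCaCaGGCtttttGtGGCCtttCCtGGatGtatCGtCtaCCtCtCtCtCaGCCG
Sema3d, exon 11 of 18, plus strand, chr5:12553103-12553222: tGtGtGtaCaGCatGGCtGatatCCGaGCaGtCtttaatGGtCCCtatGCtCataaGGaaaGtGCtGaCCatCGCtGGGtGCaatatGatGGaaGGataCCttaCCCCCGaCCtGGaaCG
Sema3a, exon 11 of 17, plus strand, chr5:13565751-13565870: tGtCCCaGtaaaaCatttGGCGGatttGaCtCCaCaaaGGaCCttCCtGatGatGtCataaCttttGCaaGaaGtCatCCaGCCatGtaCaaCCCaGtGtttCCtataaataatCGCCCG
G and C made up 70 and 73 of the 120 bases in Sema6b and Sema6c, and 60 and 52 of the 120 in Sema3d and Sema3a. Over the whole coding region GC content was 63.4% in Sema6b and 63.1% in Sema6c against 45.8% in both Sema3d and Sema3a, so the members differed within their coding sequence and not only in their untranslated ends.

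Levels are given as TMM-scaled CPM per kilobase of exon, a scale that allows genes of different length to be compared. The place of Bahd1-KO replicate 3 among the embryos rests in part on its TMM factor of 0.684. Sema3a had 6217 counts of 78.9 times 1e6 there and 4980 of 61.7 times 1e6 in Bahd1-KO replicate 1. Relative to total counts, Sema3a, Sema3b and Sema5a were thus not highest in Bahd1-KO replicate 3, and Sema3c, Nrp1 and Sema6d were lowest. Sema3d, Sema3e, Sema3g and Plxnb3 stayed highest. In Bahd1-WT embryos receptors had the highest levels. Plxna1, a co-receptor of neuropilins for class 3 semaphorins, had a mean of 31.9 ± 8.98 (SD, n = 3), Plxna2 28.1 ± 4.64, Plxnb2 22.2 ± 7.57, Plxnc1 20.8 ± 4.33 and Plxna4 20.8 ± 5.03. The ligands began with Sema7a at 14.0 ± 2.93, the single semaphorin held by a GPI anchor, and Sema6a at 13.2 ± 1.31. At the other end stood Sema3d at 0.914 ± 0.314, Sema3g at 0.907 ± 0.284, Sema3b at 0.497 ± 0.125 and Plxnb3 at 0.132 ± 0.0307, which were also the members with the fewest counts (22 to 228 counts per embryo for Plxnb3). Plxna1 lay above 93.0% of protein-coding genes by Bahd1-WT mean and Plxnb3 above 15.8%. Neighbours in this order had overlapping Bahd1-WT ranges, except that Sema3e lay above Sema3d, Sema3g above Sema3b and Sema3b above Plxnb3 in every Bahd1-WT embryo.

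**Figure D1:**
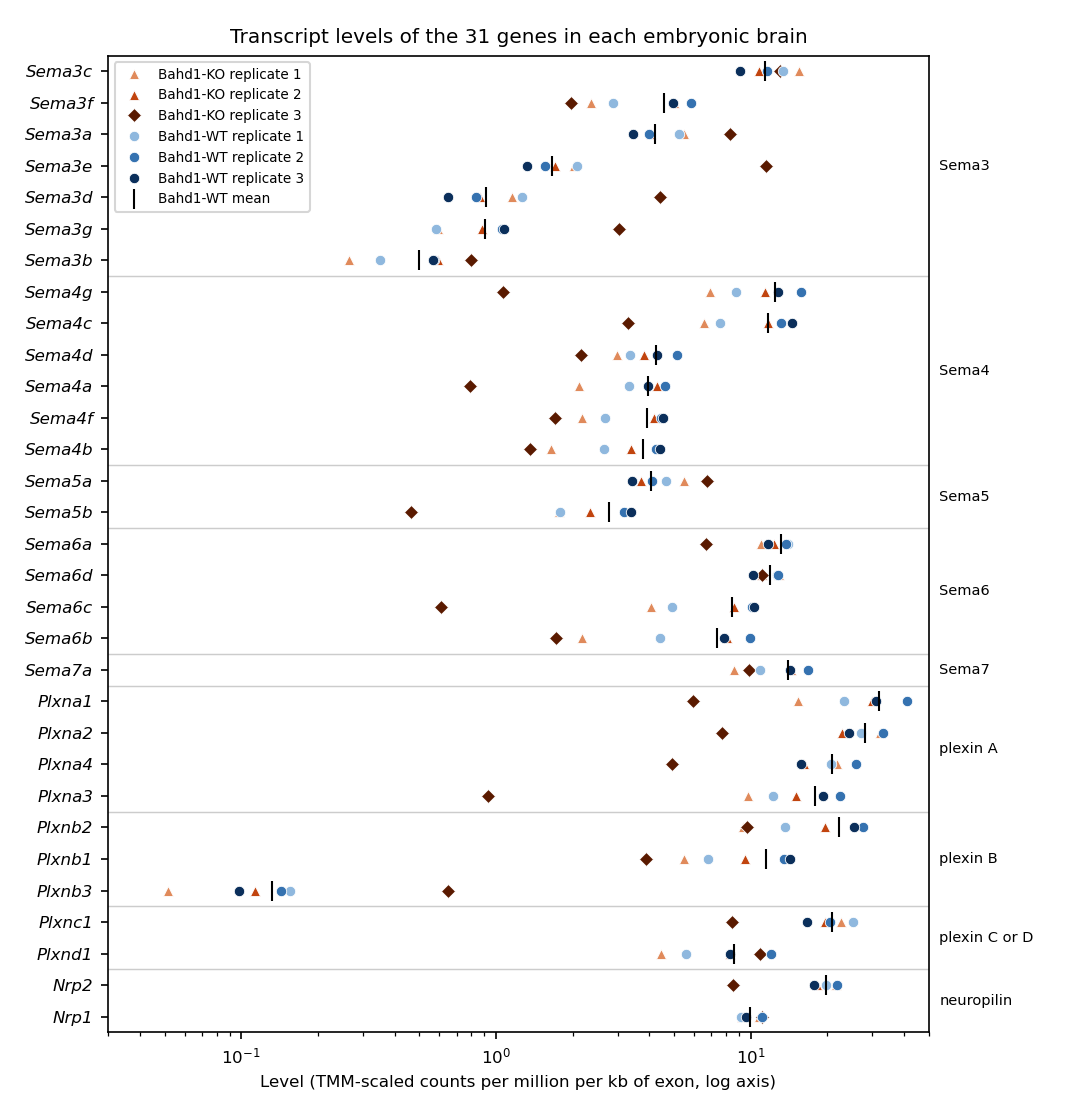
Level of each of the 31 genes (TMM-scaled CPM per kilobase of exon, log axis) in each embryo, grouped by class. Circles are Bahd1-WT embryos, triangles Bahd1-KO replicates 1 and 2, diamonds Bahd1-KO replicate 3, and the vertical stroke the Bahd1-WT mean. Bahd1-KO replicate 3 lies below every other embryo in 18 genes and above every other embryo in 7, while Bahd1-KO replicate 2 lies within the Bahd1-WT range in 29 genes and Bahd1-KO replicate 1 in 8, with 19 genes below it and 4 above.

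Across the members the genotype difference leaned to lower levels in Bahd1-KO. Of the 31 log2 fold changes, 22 were negative and 9 positive, with a median of -0.43, beside a median of 0.06 over all genes tested. They ran from -1.07 for Plxna3 to 1.61 for Sema3e. Without Bahd1-KO replicate 3, 25 were negative and 6 positive with a median of -0.30, beside -0.01 over all genes, and the range narrowed to -0.67 for Plxnb3 and 0.18 for Sema3c. No member passed the test in either fit, and without replicate 3 the smallest unadjusted p of edgeR was 0.125.

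Single embryos stood apart from the rest in many members. Bahd1-KO replicate 3 was lower than all 5 other embryos in 18 of 31 members, against 36.0% of all genes tested, and higher than all 5 in 7 of 31, against 38.1% of all genes. Bahd1-WT replicate 2 was the highest of the 6 embryos in 14 of 31 members, against 12.6% of all genes, and the lowest in none. Bahd1-KO replicate 1 was the lowest in 5 of 31, against 15.8% of all genes. Bahd1-KO replicate 2 was neither the highest nor the lowest embryo in any member.

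The class 3 semaphorins, secreted repellents and attractants, were the class in which most members had positive log2 fold changes, 6 of 7, and in 5 of 7 Bahd1-KO replicate 3 was the highest embryo. Sema3e signals to Plxnd1 without a neuropilin and patterns vessels and thalamic and striatal axons. With embryos in the order of their replicate numbers, as in all such sentences, its levels were 2.03, 1.71 and 11.5 in Bahd1-KO embryos and 2.08, 1.56 and 1.32 in Bahd1-WT embryos. Bahd1-KO replicate 3 was 6.60-fold above the mean of the other 5 embryos, and the other Bahd1-KO embryos lay within the Bahd1-WT range. Between genotypes the log2 fold change was 1.61 (SE 0.742, edgeR adjusted p = 0.696), and 0.16 (SE 0.268) without replicate 3. Sema3d, which acts on axons and on neural crest and endothelial cells, had levels of 1.16, 0.864 and 4.42 in Bahd1-KO embryos and of 1.26, 0.835 and 0.646 in Bahd1-WT embryos. The same embryo was alone on the high side and the rest overlapped. Its log2 fold change was 1.23 (SE 0.654, edgeR adjusted p = 0.696), and 0.13 without replicate 3.

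Sema3g, a ligand of neuropilin-2 known from blood vessels, had levels of 0.592, 0.884 and 3.03 in Bahd1-KO embryos and of 0.580, 1.06 and 1.08 in Bahd1-WT embryos. Bahd1-KO replicate 3 was again above all others, and the log2 fold change of 0.73 (SE 0.652, edgeR adjusted p = 0.716) became -0.30 when it was left out. Sema3b, which was low throughout, had levels of 0.265, 0.592 and 0.795 in Bahd1-KO embryos and of 0.352, 0.570 and 0.568 in Bahd1-WT embryos. The Bahd1-KO values enclosed the Bahd1-WT ones, and the log2 fold change was 0.15 (SE 0.496, edgeR adjusted p = 0.922), or -0.21 without replicate 3. Sema3c, an attractant of callosal and cortical axons, was the class member with the highest level. It had levels of 15.4, 10.8 and 13.0 in Bahd1-KO embryos and of 13.4, 11.6 and 9.08 in Bahd1-WT embryos, and Bahd1-KO replicate 3 lay within the range of the others. In edgeR the log2 fold change was 0.20 (SE 0.258, edgeR adjusted p = 0.796), with a 95% confidence interval of -0.41 to 0.81. Sema3a, the ligand that collapses growth cones through neuropilin-1, was highest in Bahd1-KO replicate 3 (8.31 against 3.45 to 5.48). Sema3f, the main ligand of neuropilin-2, was lowest there (1.97 against 2.37 to 5.82) and was the single class 3 member with a negative log2 fold change, -0.55 (-0.31 without that embryo).

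Sema3d, Sema3a and Sema3e, all highest in Bahd1-KO replicate 3 by TMM-scaled level, lie in this order along chromosome 5. Between Sema3d and Sema3a lie 536 kb and no protein-coding gene, and between Sema3a and Sema3e 423 kb and 1 protein-coding gene (GENCODE M21, GRCm38). Relative to total counts, Sema3a was not highest in that embryo. Sema3c lies 3318 kb beyond Sema3e on the same chromosome and had a level in that embryo within the range of the others. A pair that lies closer did not go the same way by TMM-scaled level. Sema3b and Sema3f are 72.3 kb apart on chromosome 9. In Bahd1-KO replicate 3 the former was the highest and the latter the lowest of the 6 embryos. Relative to total counts, Sema3b lay within the range of the others in Bahd1-KO replicate 3. On the X chromosome Plxnb3 and Plxna3, 557 kb apart, also went opposite ways there.

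The 6 class 4 semaphorins, membrane proteins that bind plexins without a neuropilin, all had negative log2 fold changes (-0.95 to -0.52), and in 6 of 6 Bahd1-KO replicate 3 was the lowest embryo. Sema4g, the class member with the highest level, had levels of 6.90, 11.4 and 1.07 in Bahd1-KO embryos and of 8.77, 15.7 and 12.8 in Bahd1-WT embryos. Its level in Bahd1-KO replicate 3 was 10.4-fold below the mean of the others, and Bahd1-KO replicate 2 lay within the Bahd1-WT range while replicate 1 lay under it. Its log2 fold change was -0.95 (SE 0.727, edgeR adjusted p = 0.696), and -0.45 without replicate 3. Sema4c, a ligand of plexin B2, had a log2 fold change of -0.71 (-0.37 without replicate 3), Sema4d, a ligand of plexin B1, of -0.52 (-0.34), and Sema4a, a ligand also known from retina and immune cells, of -0.73 (-0.32). Sema4b and Sema4f, both found at synapses, had -0.83 (-0.59 without replicate 3) and -0.54 (-0.30).

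Class 5 held a pair that went opposite ways. Sema5a, a membrane semaphorin with thrombospondin repeats, had levels of 5.45, 3.71 and 6.72 in Bahd1-KO embryos and of 4.66, 4.11 and 3.42 in Bahd1-WT embryos. Bahd1-KO replicate 3 was the highest embryo and replicate 2 lay among the Bahd1-WT ones. The log2 fold change was 0.38 (SE 0.288, edgeR adjusted p = 0.696), and 0.15 without replicate 3. Sema5b, its paralog, was lowest in the same embryo (0.466 against 1.77 to 3.38) with a log2 fold change of -0.87, or -0.44 without it.

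Among the class 6 semaphorins, transmembrane ligands of A-type plexins, Sema6a had the highest level. Its levels were 11.0, 12.3 and 6.67 in Bahd1-KO embryos and 14.0, 13.8 and 11.7 in Bahd1-WT embryos. Bahd1-KO replicate 3 was the lowest and replicate 2 lay within the Bahd1-WT range. Between genotypes the log2 fold change was -0.40 (SE 0.287, edgeR adjusted p = 0.696), and -0.19 without replicate 3. Sema6c had levels of 4.07, 8.56 and 0.606 in Bahd1-KO embryos and of 4.92, 10.1 and 10.3 in Bahd1-WT embryos. Its level in Bahd1-KO replicate 3 was 12.5-fold below the mean of the others, and Bahd1-KO replicate 1 and Bahd1-WT replicate 1 were close to each other at the low side of the rest. In edgeR the log2 fold change was -0.94 (SE 0.808, edgeR adjusted p = 0.710), and -0.42 without replicate 3. Sema6b was likewise low in Bahd1-KO replicate 1 (2.17), Bahd1-KO replicate 3 (1.72) and Bahd1-WT replicate 1 (4.40), and between 7.85 and 9.95 in the other 3 embryos. Sema6d, a ligand of plexin A1, stayed between 10.2 and 12.9 in all 6 embryos (log2 fold change -0.02, 95% confidence interval -0.54 to 0.50).

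Sema7a, which acts through integrin beta-1 and plexin C1, had levels of 8.63, 14.4 and 9.84 in Bahd1-KO embryos and of 10.9, 16.8 and 14.3 in Bahd1-WT embryos. Bahd1-KO replicates 1 and 3 were the lowest embryos, and replicate 2 lay within the Bahd1-WT range. Its log2 fold change was -0.35 (SE 0.297, edgeR adjusted p = 0.706). Its receptor gene Plxnc1 had levels of 22.7, 19.6 and 8.42 in Bahd1-KO embryos and of 25.3, 20.5 and 16.7 in Bahd1-WT embryos. Only Bahd1-KO replicate 3 lay outside the Bahd1-WT range, and the log2 fold change of -0.30 (SE 0.395, edgeR adjusted p = 0.797) was 0.01 without it. Plxnd1, the receptor of Sema3e on vessels and axons, had a level of 10.9 in Bahd1-KO replicate 3, which only Bahd1-WT replicate 2 exceeded.

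The A-type plexins, which carry the signal of class 3 ligands bound to neuropilins and bind class 6 ligands directly, were the lowest in Bahd1-KO replicate 3 in 4 of 4 genes. Plxna3 had levels of 9.78, 15.0 and 0.931 in Bahd1-KO embryos and of 12.2, 22.4 and 19.2 in Bahd1-WT embryos. Its level in Bahd1-KO replicate 3 was 16.9-fold below the mean of the others, the largest such distance among the 31 genes, and Bahd1-KO replicate 2 lay within the Bahd1-WT range. The log2 fold change was -1.07 (SE 0.823, edgeR adjusted p = 0.696), and -0.54 without replicate 3. Plxna1 had levels of 15.3, 29.9 and 5.95 in Bahd1-KO embryos and of 23.3, 41.2 and 31.1 in Bahd1-WT embryos. Replicate 2 again lay within the Bahd1-WT range and the other Bahd1-KO embryos below it. Between genotypes the log2 fold change was -0.91 (SE 0.556, edgeR adjusted p = 0.696), and -0.50 without replicate 3. Plxna2 and Plxna4, receptors of Sema6a in the hippocampus and cerebellum, had 7.68 and 4.93 in Bahd1-KO replicate 3 against 22.8 to 33.2 and 15.8 to 25.9 in the others. Without that embryo their log2 fold changes were -0.05 and -0.14.

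The B-type plexins are receptors of class 4 semaphorins. Plxnb2, needed for the closure of the neural tube and for granule cell migration, had levels of 9.36, 19.5 and 9.70 in Bahd1-KO embryos and of 13.6, 27.7 and 25.4 in Bahd1-WT embryos. Bahd1-KO replicates 1 and 3 were close to each other and below all Bahd1-WT embryos, while replicate 2 lay within their range. In edgeR the log2 fold change was -0.79 (SE 0.408, edgeR adjusted p = 0.696), and -0.62 without replicate 3. Plxnb1 was also lowest in these same embryos, with levels of 5.49, 9.49 and 3.89 in Bahd1-KO embryos and of 6.79, 13.5 and 14.2 in Bahd1-WT embryos. Plxnb3 had levels of 0.0517, 0.113 and 0.651 in Bahd1-KO embryos and of 0.156, 0.143 and 0.0976 in Bahd1-WT embryos, so that it was near the bottom of the scale in all but Bahd1-KO replicate 3, which was 5.79-fold above the mean of the rest. The log2 fold change of 1.03 (SE 0.896, edgeR adjusted p = 0.711) was -0.67 without it.

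Nrp1, the neuropilin of Sema3a, was among the steadiest members by TMM-scaled level, though relative to total counts it was lowest in Bahd1-KO replicate 3. It had levels of 10.8, 9.20 and 11.1 in Bahd1-KO embryos and of 9.16, 11.1 and 9.61 in Bahd1-WT embryos, and the genotypes lay on top of each other. Its log2 fold change was 0.06 (95% confidence interval -0.45 to 0.57). Nrp2, the neuropilin of Sema3f, had levels of 21.7, 18.2 and 8.55 in Bahd1-KO embryos and of 19.7, 21.9 and 17.7 in Bahd1-WT embryos. Bahd1-KO replicate 3 alone was low, and the log2 fold change was -0.29 (SE 0.363, edgeR adjusted p = 0.786), or -0.00 without that embryo. The level of Nrp2 over that of Nrp1 was 1.84 to 2.15 in 5 embryos and 0.773 in Bahd1-KO replicate 3, so the order of the neuropilins was turned in that library.

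**Figure D2:**
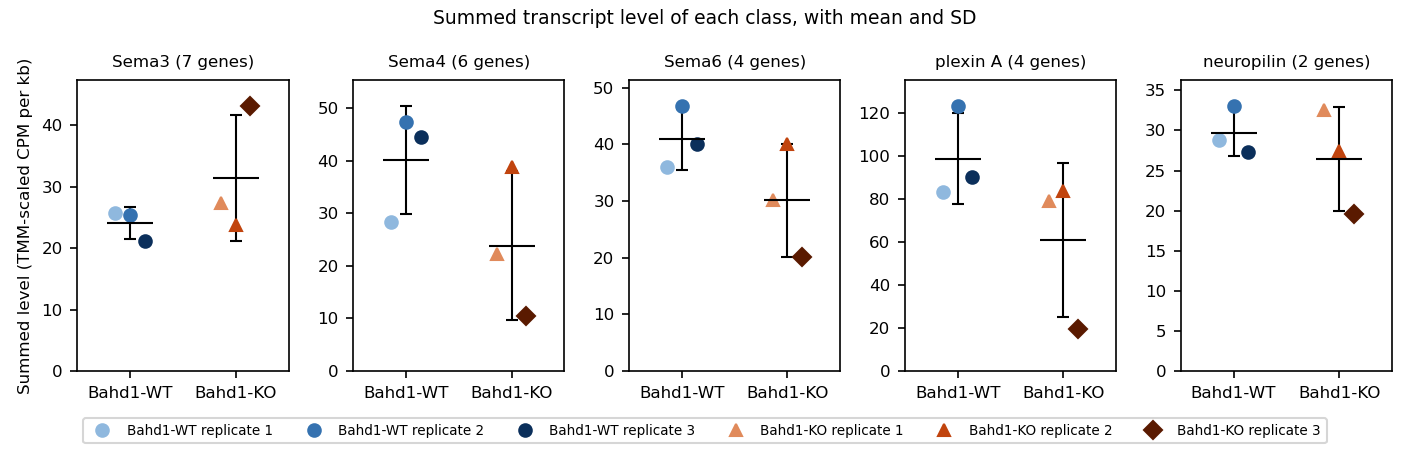
Summed level (TMM-scaled CPM per kilobase of exon, axes from 0) of 5 classes by genotype. Each symbol is an embryo, the wide bar the mean and the error bar the SD (n = 3). In Bahd1-KO replicate 3 the plexin A sum is 19.5 against 79.1 to 123 in the others, and the Sema3 sum is 43.1 against 21.1 to 27.3.

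Summed over each class, the secreted ligands and the A-type receptors went opposite ways in Bahd1-KO replicate 3. The 4 A-type plexins summed to 79.1, 83.8 and 19.5 in Bahd1-KO embryos and to 83.1, 123 and 90.3 in Bahd1-WT embryos. The 7 class 3 semaphorins summed to 27.3, 23.8 and 43.1 in Bahd1-KO embryos and to 25.8, 25.4 and 21.1 in Bahd1-WT embryos. Thus Bahd1-KO replicate 3 lay farthest from the rest in both classes, as the plot of class sums shows. In the plexin A sum Bahd1-WT replicate 2 also stood above the others. The 6 class 4 semaphorins summed to 22.3, 38.7 and 10.4 in Bahd1-KO embryos and to 28.4, 47.3 and 44.4 in Bahd1-WT embryos, and the 4 class 6 semaphorins to 30.2, 40.0 and 20.1 against 36.0, 46.7 and 40.0. In both classes the genotypes overlapped through Bahd1-KO replicate 2.

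Among the 5 embryos other than Bahd1-KO replicate 3, the members lay higher or lower by GC content. Limits of 50 and 55% were chosen after the values were seen. In Bahd1-KO replicate 1 all 18 members with a GC content of 55% or more were below the mean of the other 4 embryos, by a median of -0.93 on the log2 scale, while 9 of the 10 members under 50% were above it. Bahd1-WT replicate 1 showed the same order, with 17 of the 18 GC-rich members lower (median -0.46) and 8 of the 10 GC-poor members higher. Bahd1-WT replicate 2 showed the opposite order, with 18 of 18 GC-rich members higher (median 0.61). So did Bahd1-WT replicate 3, with 17 of 18 GC-rich members higher (median 0.46) and 10 of 10 GC-poor members lower, and Bahd1-KO replicate 2, with 16 of 18 higher (median 0.22) and 10 of 10 lower.

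Over the 31 members, Pearson's r between GC content and the log2 distance from the mean of the other 4 embryos was -0.89 in Bahd1-KO replicate 1, -0.76 in Bahd1-WT replicate 1, 0.72 in Bahd1-KO replicate 2, 0.91 in Bahd1-WT replicate 2 and 0.85 in Bahd1-WT replicate 3. Spearman's rho was -0.78, -0.81, 0.75, 0.84 and 0.81 in the same order. These are descriptions across genes of the same libraries, which are not independent replicates. The longest transcript of Nrp1 is non-coding, at 41.9% GC, while the coding region of its longest protein-coding transcript has 49.5%. The relation was not limited to the guidance genes. With all 6 embryos, r over 21606 genes was -0.52 and -0.25 in Bahd1-KO and Bahd1-WT replicates 1. It was 0.35 in Bahd1-KO replicate 2, and 0.48 and 0.46 in Bahd1-WT replicates 2 and 3. On the same 6 embryos the members' r was -0.61, -0.29, 0.78, 0.80 and 0.81 in this order. In Bahd1-KO replicate 3, r was -0.20 over all genes and -0.50 over the members. Each genotype thus held an embryo of the low order, Bahd1-KO replicate 1 and Bahd1-WT replicate 1.

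**Figure D3:**
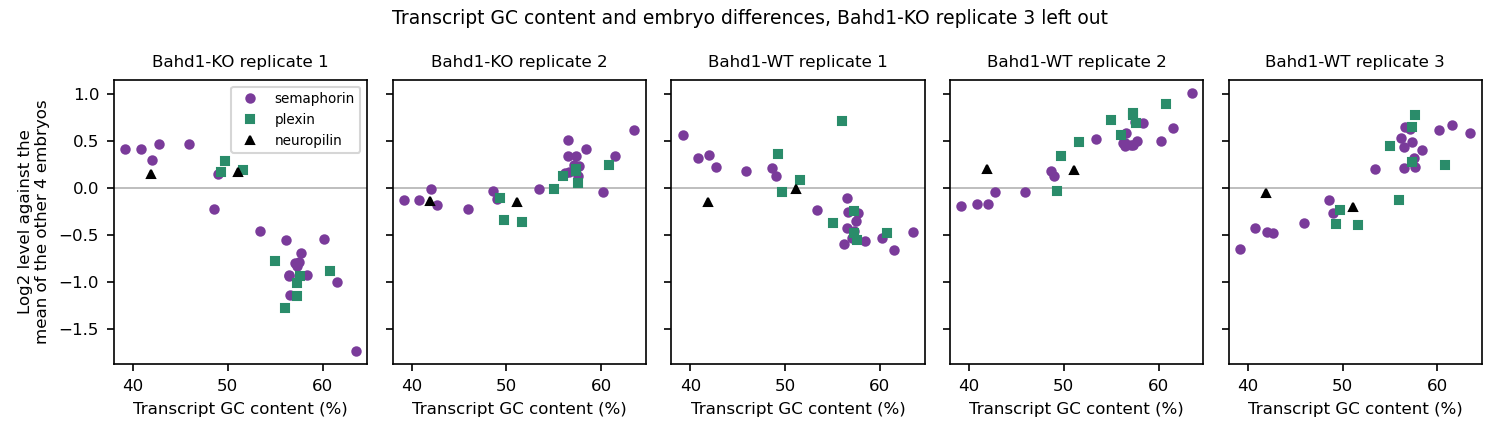
Log2 level of each of the 31 genes against the mean of the other 4 embryos, plotted over the GC content of the longest transcript (%), with a panel for each embryo except Bahd1-KO replicate 3. Points fall with GC content in replicate 1 of both genotypes (r = -0.89 and -0.76) and climb with it in the other 3 embryos (r = 0.72 to 0.91).

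The lean toward lower levels in Bahd1-KO was seen in the GC-rich members and not in the GC-poor ones, and its source was not tested. Without Bahd1-KO replicate 3, 18 of 18 GC-rich members had a negative log2 fold change with a median of -0.44, while the 10 GC-poor members had 6 positive and 4 negative with a median of 0.07. After each embryo was corrected for GC content by a lowess curve over all genes, an alternative chosen after the values were seen, the GC-rich members had 8 positive and 10 negative values with a median of -0.05. The median of all 31 was then -0.02. With all 6 embryos the correction left 22 negative and 9 positive values with a median of -0.29. The correction takes out any embryo difference that goes with GC content, whatever its source, so these values do not show the source.

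**Figure D4:**
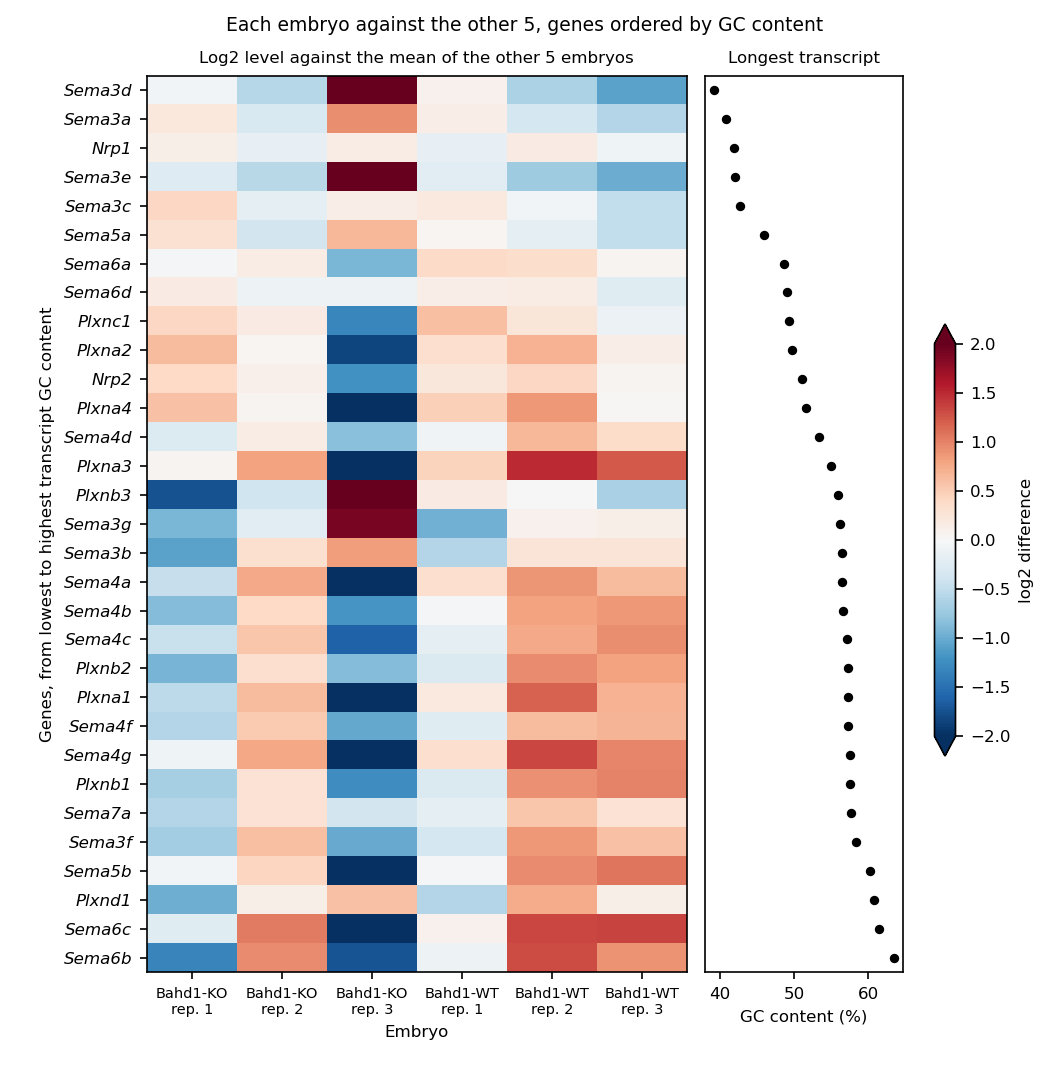
Log2 level of each gene in each embryo against the mean of the other 5 (colour, cut at -2 and 2), with genes ordered from the lowest to the highest transcript GC content, which the right panel gives in %. Bahd1-KO replicate 3 has the strongest colours in both directions, and Bahd1-WT replicates 2 and 3 turn from blue to red as GC content increases.

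In Bahd1-KO replicate 3 some members, picked after their values were seen, lay against the order by GC content. Sema3g, Sema3b and Plxnb3, at 56.2, 56.5 and 56.0% GC, were the highest there of all 6 embryos, while Plxna2 and Plxnc1, at 49.7 and 49.3%, were the lowest. Sema3g, Sema3b and Plxnb3 were also the 3 lowest members by Bahd1-WT level. Over the members r was -0.50 in this embryo, and the cause of its order was not tested.

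The promoters of the members that went farthest up and down in Bahd1-KO replicate 3 are printed. This choice rests on that library alone, and in both genes Bahd1-KO replicate 2 lay within the Bahd1-WT range. The promoters are the 250 bases before the RefSeq start of Sema3e and of Plxna3 (GRCm38.p6, both on the plus strand, 5′ to 3′), with CG dinucleotides in capitals.
Sema3e, chr5:14025026-14025275: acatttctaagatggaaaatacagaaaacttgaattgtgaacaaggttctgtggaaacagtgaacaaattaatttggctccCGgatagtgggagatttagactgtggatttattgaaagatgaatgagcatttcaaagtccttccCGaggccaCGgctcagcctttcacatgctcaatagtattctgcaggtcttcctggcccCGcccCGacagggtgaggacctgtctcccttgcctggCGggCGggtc
Plxna3, chrX:74328816-74329065: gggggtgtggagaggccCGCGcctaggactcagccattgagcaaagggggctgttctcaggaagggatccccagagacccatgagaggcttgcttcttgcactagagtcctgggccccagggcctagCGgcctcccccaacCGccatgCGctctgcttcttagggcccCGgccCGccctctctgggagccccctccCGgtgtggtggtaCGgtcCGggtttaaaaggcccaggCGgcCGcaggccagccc
Sema3e had 7 CG in this window, more than 53.7% of all promoters of the same length, and Plxna3 had 12, more than 66.5%. At least 1 CG was present in 92.1% of all 32851 promoters. RefSeq promoters were matched for 26 of the 31 members (37 windows), which held 0 to 39 CG with a median of 13, beside a median of 6 over all promoters. The files hold no measurement of chromatin or methylation at them.

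The rest of the pathway was read from 43 co-receptor and signalling genes. Of these, 0 had an adjusted p under 0.05 and 0 an unadjusted p under 0.05 in edgeR, with 18 higher and 25 lower in Bahd1-KO and a median log2 fold change of -0.11. The 12 co-receptors had 7 higher and 5 lower (median 0.40), the 13 GTPases and their regulators 7 and 6 (median 0.13), the 9 kinases 3 and 6 (median -0.20) and the 9 cytoskeletal effectors 1 and 8 (median -0.68). Without Bahd1-KO replicate 3 the medians were -0.17, -0.20, -0.02 and -0.36. Genes chosen after their values were seen show the range in that embryo. Dpysl3, a collapsin response mediator of young neurons, had a level of 11.7 against 385 to 452 in the others (log2 fold change -0.68, or -0.13 without that embryo), and Crmp1, which relays Sema3a signals, 2.86 against 74.4 to 182 (log2 fold change -1.13, or -0.56). Itgb1, the integrin that serves Sema7a, had 255 against 47.1 to 70.9 (log2 fold change 1.25, or 0.22). Bahd1-KO replicate 2 lay at or within the Bahd1-WT range in all 3 genes, while replicate 1 lay below it in Crmp1 and above it in Itgb1.

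**Figure D5:**
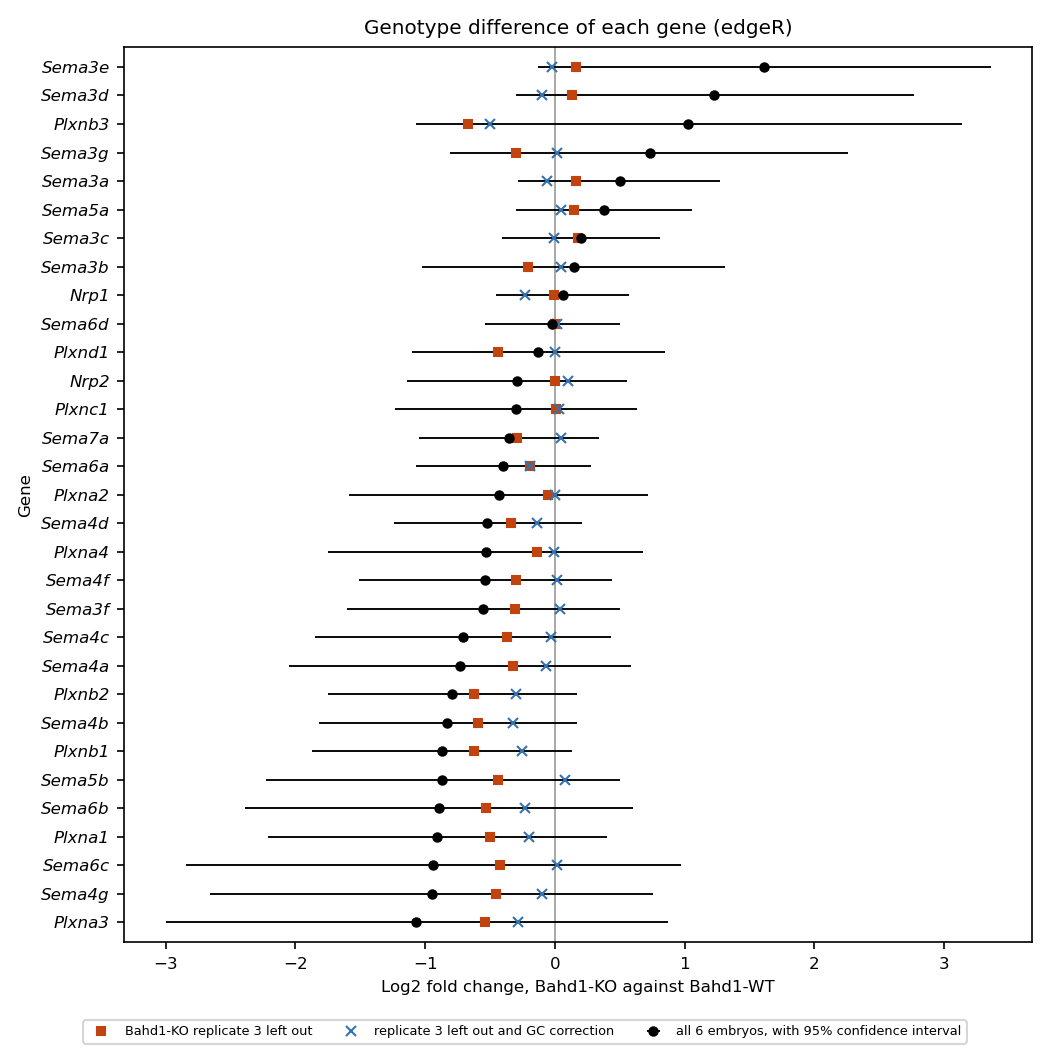
Log2 fold change of each gene, Bahd1-KO against Bahd1-WT, from edgeR. Black points with lines are all 6 embryos with 95% confidence intervals, orange squares leave out Bahd1-KO replicate 3, and blue crosses leave it out and correct for GC content. Every interval includes 0, and the values range from -1.07 to 1.61 with all embryos and from -0.67 to 0.18 without replicate 3.

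The confidence intervals, which are not adjusted for the number of genes, show the spread of each difference. The test was stricter, since its p-values were adjusted over 24739 genes. Bahd1, with a log2 fold change of -8.4 (SE 0.606), had an edgeR adjusted p of 0.0462, close to the threshold of 0.05. An interval without 0 would thus not by itself have made a call, and 0 called members do not exclude differences larger than 2-fold. With all 6 embryos the 95% interval spanned -3.00 to 0.87 for Plxna3 and -0.13 to 3.36 for Sema3e, so a fold change of 2 in either gene was not detectable with this spread. Intervals were narrower where embryos were alike, as in Nrp1 and Sema6d. With TMM scaling their intervals exclude a fold change of 2 in either direction.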

How the data were processed

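The authors purified polyadenylated RNA, built stranded libraries, aligned reads to GRCm38 and counted them per Ensembl gene with featureCounts (1.4.6-p3). Per the labels, the replicates were biological ones. The deposited values were raw read counts, 1 column per embryo, with no normalization. From these counts edgeR 4.0.16 (R 4.3.3) tested genotype by its two-sided quasi-likelihood test with TMM factors, over genes with 10 or more counts in all embryos together, with p-values adjusted by Benjamini and Hochberg over all 24739 genes tested. Levels divide TMM-scaled CPM by the merged exon length (GENCODE M21). GC content is that of each gene's longest transcript of any type. The scripts were tested on simulated data.

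The members and all gene lists were chosen with earlier results of these data known. Full values are given for members with the highest level in their class, the 3 lowest members, and the 3 members farthest above and the 3 farthest below in the embryo that stood most apart. Other members and genes were named after their values were seen. Alternatives were the count filter, scaling factors, DESeq2 1.42.0, voom with quality weights (limma 3.58.1), the replicate number as a block, protein-coding genes only, each embryo left out, and a lowess GC correction (span 0.3). Total counts were 61.7 to 91.8 (in 1e6) per embryo.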

Additional observations from a re-analysis of the deposited data

How the results depend on the processing

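No member passed the adjusted threshold under any of the 19 alternatives run. Several of these fits called 0 genes, so that not even Bahd1 passed, and 0 called members there carry little weight. They were the replicate block with all embryos and the fits that left out an embryo other than Bahd1-KO replicate 3. All genes called numbered 1 in the test as reported, 8 with DESeq2, 6 with voom and quality weights, and 0 to 4 with an embryo left out (4 without Bahd1-KO replicate 3 and 0 without any other). Without Bahd1-KO replicate 3, DESeq2 called 11 genes, the replicate block 16 and the GC correction 6, where the block compared genotypes within replicates 1 and 2 only. Unadjusted p-values under 0.05 among the 31 members numbered 0 as reported, 1 with no filter on low counts (3.23% of members against 5.96% of all genes), 1 with DESeq2 (against 5.12%), 7 with voom (22.6% against 8.95%) and 0 to 11 with an embryo left out. They were 11 without Bahd1-KO replicate 2 (35.5% against 20.2%), 2 without Bahd1-WT replicate 1 (6.45% against 1.21%) and 1 without Bahd1-KO replicate 1 (3.23% against 10.1%). Members not overlapping between genotypes numbered 0 as reported, 3 after the GC correction (9.68% of members against 8.62% of all genes) and 0 to 18 with an embryo left out. They were 18 without Bahd1-KO replicate 2 (58.1% of members against 36.6% of all genes), 14 without Bahd1-WT replicate 1 (45.2% against 29.9%), 2 without Bahd1-KO replicate 1 (6.45% against 16.1%) and 1 without Bahd1-WT replicate 3 (3.23% against 12%).

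The members' median log2 fold change of -0.43 was -0.02 with the GC correction and Bahd1-KO replicate 3 left out. The partner genes' median of -0.11 was -0.32 with total counts, -0.39 with voom, and -0.25 without Bahd1-KO replicate 3 in edgeR and in DESeq2.

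Direction turned in 28 of 304 values of the 16 members given in full. Without Bahd1-KO replicate 3, edgeR gave -0.21 for Sema3b, -0.30 for Sema3g, -0.67 for Plxnb3 and 0.01 for Plxnc1, and DESeq2 gave -0.22, -0.31, -0.68 and 0.01 for the same genes. Without Bahd1-WT replicate 1 Sema3b was at -0.08, and with total counts at -0.12. Voom gave -0.48 for Sema3b, -0.39 for Sema3g, -0.69 for Plxnb3 and 0.04 for Plxnc1. The GC correction gave -0.08 for Sema3c and 0.08 for Sema7a. With Bahd1-KO replicate 3 also left out it gave -0.01 for Sema3c, -0.10 for Sema3d, -0.02 for Sema3e, 0.02 for Sema6c, 0.05 for Sema7a, -0.50 for Plxnb3, 0.03 for Plxnc1 and 0.10 for Nrp2. The cause was not tested. With each embryo left out in turn, values ran from -0.21 to 0.48 for Sema3b, -0.30 to 1.11 for Sema3g, -0.67 to 1.53 for Plxnb3 and -0.57 to 0.01 for Plxnc1.

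Embryos with the same replicate number varied together little (r = 0.10, 0.15 and -0.08 for the 3 numbers). These r values use distances from genotype means that include Bahd1-KO replicate 3. They therefore cannot settle whether the numbers pair the embryos. A fit with the replicate number as a block called 0 genes, gave an unadjusted p under 0.05 in 2 members (Sema6b and Plxnb2, 6.45% against 2.09% of all genes) and a member median of -0.53. With Bahd1-KO replicate 3 left out, Bahd1-WT replicate 3 was alone in its block, so the genotype difference rested on replicates 1 and 2 only. That fit gave 11 such members (35.5% against 9.30% of all genes). Its log2 fold changes were -0.18 for Sema3b, -0.05 for Sema3d, -0.13 for Sema3g and -0.93 for Plxnb3.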
